A study of Mus musculus with 4 samples.

Results

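The 8 genes described here encode nuclear RNA-binding proteins of paraspeckles and of the FET family: Nono, Sfpq, Pspc1, Matr3, Rbm14, Ewsr1, Taf15 and Tardbp. They were chosen by name, as every probe set whose array annotation gave 1 of these symbols and no other, which found 31 probe sets for all 8 of the 18193 genes named on the array. The samples were 2 arrays of Neuro2A cells, a mouse neuroblastoma line, depleted of endogenous 4.5SH (4.5SH KD) and 2 arrays of control Neuro2A cells, called biological replicates in the labels. 4.5SH is a small noncoding RNA of rodents related to B1 repeats, and it was depleted with antisense oligonucleotides transfected at 30 nM. RNA came from the cytoplasmic fraction, so a lower value can mean less RNA in the cell or less of it outside the nucleus, and the nuclear fraction was not analysed here. Both control samples are listed with the same oligonucleotide dose of 30 nM, but the sequence or target used for them is not named. Loss of 4.5SH and other effects of the transfected oligonucleotides therefore cannot be told apart. In bulk RNA, fewer cells of a type and less RNA per cell cannot be told apart either. Labels do not say whether replicates were separate cultures, so p-values measure only the spread between these samples, which may be technical.

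Paraspeckles are nuclear bodies built on the long noncoding RNA Neat1. Nono, Sfpq and Pspc1 are the DBHS proteins (Drosophila behaviour, human splicing), which pair with each other, bind Neat1 and double-stranded RNA, and are known for holding some RNAs with inverted repeats in the nucleus. The FET proteins Ewsr1 and Taf15, like Tardbp (TDP-43), have low-complexity regions and act in transcription and splicing.

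Of 10 neuronal markers measured, Hand2 (mean signal 1447 in the knockdown and 1581 in the control), Stmn2, Tubb3, Snap25 and Chga were well above the median probe set, while Gata3 (21.6 in the knockdown and 10.3 in the control), Th, Dbh, Nefl and Nefm lay near it. Summed fibroblast markers read 68.6 to 76.2 in the knockdown and 62.9 to 75.1 in the control, and the leukocyte marker Ptprc averaged 0.5 in the knockdown and 4.2 in the control. The macrophage marker Cd68 averaged 339.8 in the knockdown and 669.9 in the control (means of 2 arrays each). Signal at the 3' end over that at the 5' end was 0.787 to 0.833 in the knockdown and 0.861 to 0.884 in the control for Gapdh, and 2.47 to 2.49 in the knockdown and 2.60 to 2.78 in the control for Actb. What part these differences have in the results below was not tested. The 2% trimmed mean signal was 128 and 133 in the knockdown arrays and 149 and 144 in the control arrays, and the number of arrays limits all precision.

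Signals below are the deposited values, on a linear scale. Fold changes are differences of log2(signal + 16), knockdown minus control, with the standard error of the limma fit after ±, on 2 against 2 arrays. A change is called at a limma adjusted p under 0.05 over all 22525 tested probe sets, those whose mean signal reached the median of 16.9. The median fold change of all tested probe sets was -0.11 on the deposited scale. It was 0.00 after quantile scaling and -0.23 after scaling on the spike-in probe sets, so the zero point itself moves with the scaling.

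Depletion of 4.5SH went with lower Ewsr1 and, by less, lower Nono, with opposite changes at different probe sets of Tardbp, and with small rises at 2 of 3 tested probe sets of Matr3 and at 1 of Sfpq. Neither Pspc1 nor Rbm14 had a probe set that passed, and Taf15 was too dim to test. Of the 31 probe sets, 25 were tested, in 7 of the 8 genes. Of these 5 were higher and 5 lower, where 9.76% and 25.8% of all tested probe sets were higher and lower. With 10 of 25 called (40.0%) the members lay close to the 35.6% of all tested probe sets, so the count itself is no result about them. With quantile scaling 8 members were higher and 4 lower, where 16.9% of all tested probe sets were higher and 16.7% lower. With arrays centred on their own tested probe sets the counts were again 8 and 4, where the background was 16.9% higher and 17.3% lower. With spike-in scaling 0 were higher and 9 lower, where the background was 5% higher and 34.5% lower. The groups did not overlap at 18 of the 25, with 8 higher and 10 lower in the knockdown, where the background was 66.9% in all, 22.6% higher and 44.3% lower. The members' median fold change was -0.01 on the deposited scale, 0.11 after quantile scaling and -0.16 after spike-in scaling.

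**Figure D1:**
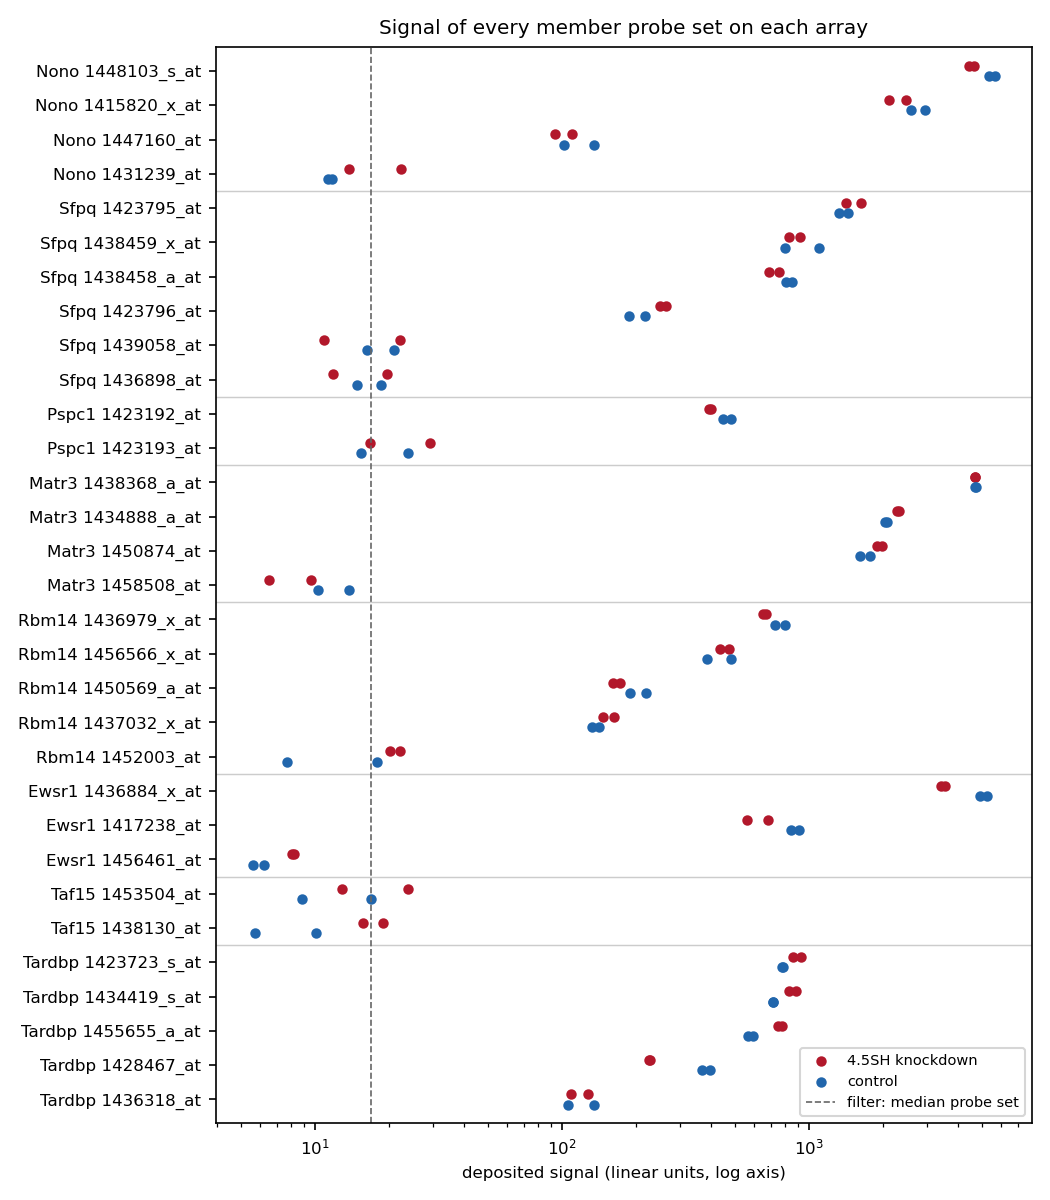
Deposited signal (log axis) of all 31 member probe sets on the 2 knockdown arrays (red, above) and the 2 control arrays (blue, below), with the filter of 16.9 as a dashed line. Both Taf15 probe sets and 4 others fall below the filter by their mean, and the pairs at Ewsr1 and at Tardbp 1428467_at are far apart.

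Ewsr1, the FET protein known from the fusion genes of Ewing sarcoma, was lower at both of its tested probe sets. Probe set 1436884_x_at read 3533 and 3408 in the knockdown, against 5249 and 4940 in the control. Probe set 1417238_at read 558.4 and 680.7 in the knockdown, against 908.1 and 844.9 in the control. Every knockdown array was below both control arrays at each of them. The fold changes were -0.55 ± 0.05 (adjusted p = 3.15e-06) and -0.50 ± 0.09 (adjusted p = 0.000936), which leaves 0.682 and 0.709 of the control on the scale of signal + 16. They stayed lower under each scaling, at -0.44 and -0.31 with quantile scaling and at -0.70 and -0.64 with spike-in scaling. The call at 1417238_at missed the threshold only without the intensity trend (adjusted p = 0.0538). Its remaining probe set, 1456461_at, read 8.2 and 8.1 in the knockdown against 5.6 and 6.2 in the control and was below the filter. The ending _x_at marks probes that may also bind other transcripts, and here the probe set without it gave a similar value.

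Taf15, a FET protein that joins the TFIID transcription factor, could not be followed. Its probe sets read 15.6 and 18.8 (1438130_at) and 12.9 and 23.7 (1453504_at) in the knockdown, against 10.1 and 5.7, and 8.9 and 16.9, in the control. The control arrays were lower throughout at the first and overlapped the knockdown at the second. Both lay below the filter, where signal and background are hard to separate.

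Nono, a DBHS protein that pairs with Sfpq and Pspc1, was lower at the 2 brightest of its 4 probe sets. Probe set 1448103_s_at read 4425 and 4645 in the knockdown, against 5649 and 5365 in the control. Probe set 1415820_x_at read 2113 and 2461 in the knockdown, against 2952 and 2590 in the control. The groups did not overlap at either, though the nearest pair of arrays at the second was close. The fold change was -0.28 ± 0.05 at the first (adjusted p = 0.000548) and -0.28 ± 0.08 at the second (adjusted p = 0.0120). With quantile scaling these were -0.17 (adjusted p = 0.00684) and -0.12 (adjusted p = 0.223), so the second did not pass there. It did not pass without knockdown replicate 1 (adjusted p = 0.170), without control replicate 1 (adjusted p = 0.117), centred on tested probe sets (adjusted p = 0.168) or with no filter (adjusted p = 0.125) either. Without the intensity trend neither passed (adjusted p = 0.0942 and 0.178). Of the rest, 1447160_at read 93.4 and 109.5 in the knockdown against 102.2 and 134.2 in the control and did not pass (-0.19 ± 0.15), and 1431239_at was below the filter at 13.8 and 22.3 in the knockdown against 11.3 and 11.7 in the control. Both called probe sets end in _s_at or _x_at, which mark probes shared with other transcripts or open to cross-hybridization. Nono thus had no call from a probe set without such an ending, though the annotation gave both no other symbol.

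As Ewsr1 and Nono were the members lower at every called probe set, their promoters are shown, from 250 bases before to 50 after the start, 5′ to 3′ on the gene's strand, from RefSeq on GRCm38.p6. The Ewsr1 window is chr11:5099047-5099346 (minus strand) and the Nono window chrX:101429401-101429700 (plus strand). Capitals mark the letters CCAAT or their reverse complement ATTGG.
Ewsr1: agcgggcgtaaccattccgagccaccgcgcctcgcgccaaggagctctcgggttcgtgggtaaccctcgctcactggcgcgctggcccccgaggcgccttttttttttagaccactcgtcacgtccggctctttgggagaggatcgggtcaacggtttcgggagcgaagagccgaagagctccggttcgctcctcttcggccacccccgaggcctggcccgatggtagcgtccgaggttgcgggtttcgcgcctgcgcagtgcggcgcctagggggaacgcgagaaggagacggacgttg
Nono: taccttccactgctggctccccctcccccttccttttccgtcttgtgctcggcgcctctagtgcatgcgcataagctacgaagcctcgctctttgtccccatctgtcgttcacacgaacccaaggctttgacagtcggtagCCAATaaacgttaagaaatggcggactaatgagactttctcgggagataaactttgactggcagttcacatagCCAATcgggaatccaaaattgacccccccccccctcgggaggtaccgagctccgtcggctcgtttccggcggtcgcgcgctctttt
The CCAAT letters occurred 2 times in the Nono window and not in that of Ewsr1. Neither window held GGGCGG (or CCGCCC) or TATAAA (or TTTATA), so the pair shared none of the motifs searched. Of the 7 members searched, 5 held CCAAT, 3 held GGGCGG and 0 held TATAAA on either strand. Matr3 was left out of this search. The shares among 32851 promoters of the same length were 37.4%, 35.7% and 13.6%. CCAAT was the only motif in the printed windows, so none overlapped another there, and a match is a description only.

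Sfpq, the DBHS partner of Nono that also acts in splicing and transcription, did not move one way. Probe set 1423796_at read 248.8 and 263.3 in the knockdown, against 215.8 and 186.4 in the control, and 1438458_a_at read 686.8 and 757.9 in the knockdown, against 856.5 and 804.1 in the control. The groups were thus apart at both, in opposite directions. The first rose by 0.33 ± 0.11 (adjusted p = 0.0339) and the second was at -0.20 ± 0.08 and did not pass (adjusted p = 0.0676). The second was at -0.02 with quantile scaling, and it passed as lower with spike-in scaling (-0.34, adjusted p = 0.0157) and among the brightest 25% (adjusted p = 0.0443). The rise at 1423796_at did not pass with spike-in scaling (0.19, adjusted p = 0.277) or at a threshold of 0.01. It did not pass with no filter (adjusted p = 0.0911) or without the intensity trend (adjusted p = 0.0940) either. Its call was also lost without knockdown replicate 1 (0.37), knockdown replicate 2 (0.29) or control replicate 2 (0.23). The brightest, 1423795_at, which the annotation ties to the same GenBank record as 1423796_at, read 1412 and 1616 in the knockdown against 1436 and 1321 in the control and was at 0.13 ± 0.08 (adjusted p = 0.196). It passed only with quantile scaling (0.30, adjusted p = 0.00498) or with arrays centred on their tested probe sets (0.28, adjusted p = 0.00618). The other two tested, 1438459_x_at and 1439058_at, were at -0.10 each with overlapping groups. At 1438459_x_at 1 array decided the sign and the call, with 0.13 and no call without control replicate 1 and -0.32 without control replicate 2 (adjusted p = 0.0160). Probe set 1436898_at was below the filter at 19.5 and 11.8 in the knockdown against 14.8 and 18.5 in the control.

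Pspc1, the DBHS protein that paraspeckles were first described by, was at 394.7 and 401.3 in the knockdown, against 484.2 and 448.0 in the control, at 1423192_at. The groups were apart, and the difference of -0.22 ± 0.09 did not pass (adjusted p = 0.0700). Its 95% interval ran from -0.41 to -0.03. With quantile scaling it was -0.04 (adjusted p = 0.726) with spike-in scaling -0.36 (adjusted p = 0.0171), and it also passed when the brightest 25% alone were tested (adjusted p = 0.0473). Its other probe set, 1423193_at, was near the filter at 16.7 and 29.3 in the knockdown against 23.8 and 15.4 in the control.

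Matr3, a nuclear matrix protein that binds RNA and has been found with Sfpq and Nono, read slightly higher at 2 of 3 tested probe sets. Probe set 1450874_at read 1882 and 1968 in the knockdown, against 1770 and 1600 in the control, and 1434888_a_at read 2271 and 2310 in the knockdown, against 2029 and 2069 in the control. Groups did not overlap at either. The rises were 0.19 ± 0.07 (adjusted p = 0.0342) and 0.16 ± 0.06 (adjusted p = 0.0378), and they were 0.37 and 0.33 with quantile scaling. With spike-in scaling they were 0.05 and 0.01 and did not pass. Neither passed with no filter (adjusted p = 0.127 and 0.0924), without the intensity trend (adjusted p = 0.227 and 0.248) or at a threshold of 0.01. Leaving out 1 array ended the call at 1434888_a_at in all 4 cases (adjusted p between 0.0647 and 0.165) and at 1450874_at in 3, without either knockdown array or without control replicate 2 (adjusted p between 0.0696 and 0.233). The brightest, 1438368_a_at, read 4674 and 4690 in the knockdown against 4745 and 4691 in the control, a difference of -0.01 ± 0.05 that turned to 0.11 and passed with quantile scaling (adjusted p = 0.0407). The dimmest, 1458508_at, read 9.6 and 6.5 in the knockdown against 13.8 and 10.3 in the control, below the filter.

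Rbm14, a coactivator that paraspeckles need for their assembly, had 5 tested probe sets and none that passed. The brightest, 1436979_x_at, read 649.6 and 667.9 in the knockdown, against 798.9 and 727.0 in the control (-0.21 ± 0.08, adjusted p = 0.0576). Probe set 1450569_a_at read 160.1 and 171.2 in the knockdown, against 218.4 and 188.2 in the control (-0.27 ± 0.12, adjusted p = 0.0950). Knockdown arrays were lower than control arrays at both, and both passed with spike-in scaling (-0.35 and -0.40) but not with quantile scaling (-0.02 and -0.11). The brightest also passed without control replicate 2 (-0.27, adjusted p = 0.0428). The other three, 1456566_x_at, 1437032_x_at and 1452003_at, were at 0.08, 0.16 and 0.39 and did not pass.

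**Figure D2:**
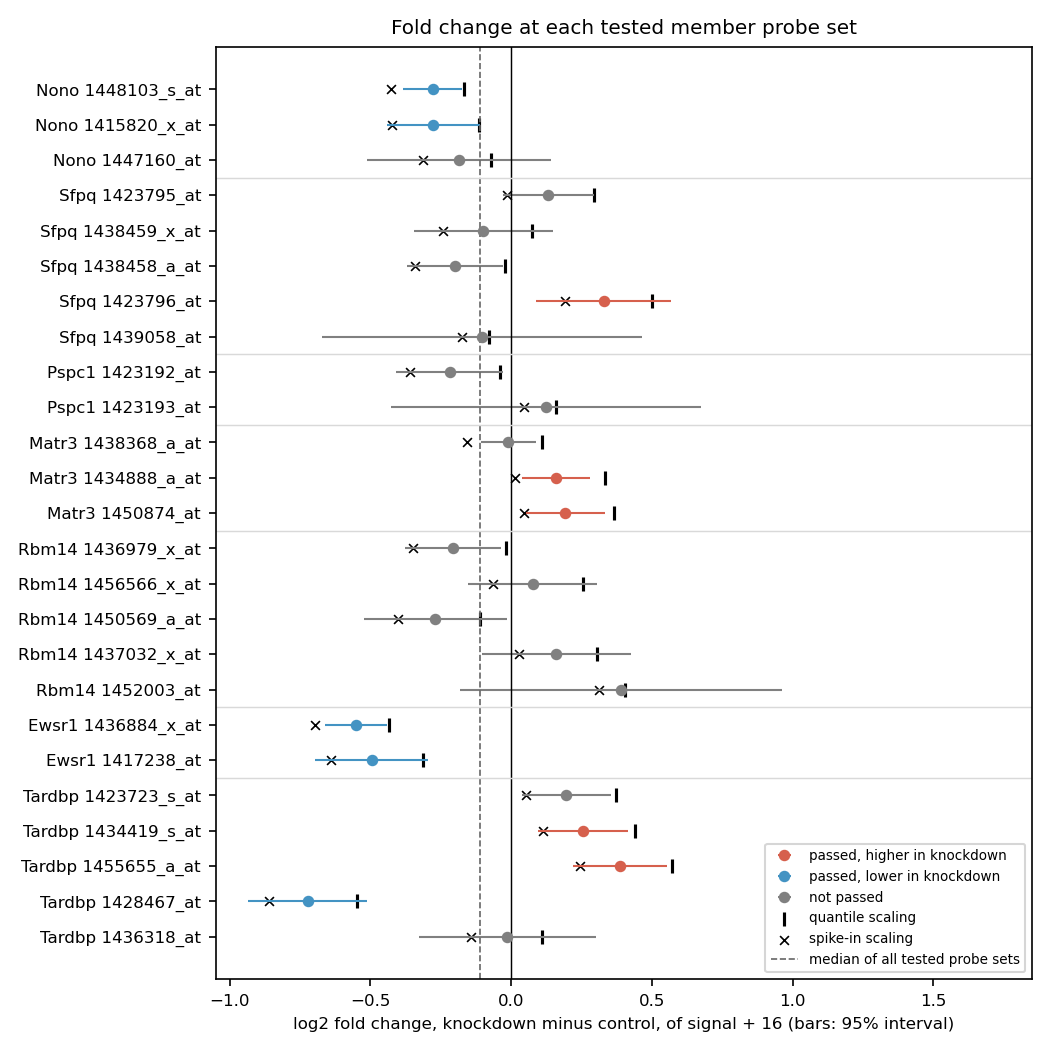
Log2 fold change, knockdown minus control, at the 25 tested member probe sets, with 95% intervals, coloured by the call on the deposited scale. Ticks give the value with quantile scaling and crosses that with spike-in scaling. Ewsr1 and Tardbp 1428467_at stay left of 0 on every scale, at -0.31 or lower.

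Tardbp, which binds UG-rich RNA and limits its own mRNA, gave opposite calls within 1 gene. Probe set 1428467_at read 225.1 and 227.0 in the knockdown, against 398.7 and 368.7 in the control. Probe set 1455655_a_at read 775.2 and 751.0 in the knockdown, against 592.6 and 566.9 in the control. Probe set 1434419_s_at read 831.9 and 886.2 in the knockdown, against 715.7 and 717.6 in the control. Knockdown arrays were below both controls at the first and above both at the other two. The first fell by 0.72 ± 0.10 on the log2 scale (adjusted p = 7.63e-05). It was lower and passed under all 16 alternatives that measured it, with fold changes between -0.86 and -0.55. The second rose by 0.39 ± 0.08 (adjusted p = 0.00144) and passed under 15 of 16, missing with spike-in scaling (0.24, adjusted p = 0.0859). Probe set 1434419_s_at rose by 0.26 ± 0.07 (adjusted p = 0.0157). It did not pass with spike-in scaling (0.11, adjusted p = 0.462), without the intensity trend (adjusted p = 0.111) or at a threshold of 0.01. Its call was also lost without knockdown replicate 2 (0.21) or without control replicate 1 (0.25). Another, 1423723_s_at, read 864.0 and 926.6 in the knockdown against 777.7 and 780.6 in the control (0.20 ± 0.07, adjusted p = 0.0528). The limit given for the ending _s_at at Nono holds for 1434419_s_at and 1423723_s_at too. The dimmest, 1436318_at, overlapped between groups (-0.01 ± 0.15).

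The difference between these probe sets can be read within each array, without scaling the arrays to each other. Calls in both directions do depend on scaling, as no Tardbp probe set passed as higher with spike-in scaling. The log2 ratio of 1428467_at to 1455655_a_at was -1.71 and -1.66 on the knockdown arrays, against -0.55 and -0.60 on the control arrays. The pair was taken after the values were seen, as the probe sets at either end of the gene's fold changes. The further Tardbp pairs set the lowest against the next highest, also with the values seen. The groups were apart by -1.11, and by -0.98 against 1434419_s_at and -0.92 against 1423723_s_at. An exact two-sided permutation test gave p = 0.333 for each, the smallest it can give with 2 against 2 arrays. In Sfpq the ratio of 1423796_at to 1438458_a_at was -1.41 and -1.47 on the knockdown arrays, against -1.91 and -2.02 on the control arrays, apart by 0.53 (exact p = 0.333). The Sfpq pair was taken from either end of its fold changes too, so its distance is the gene's own spread. With pairs picked by their values, the exact p-values are a description only. Which transcripts each probe set reads was not analysed here.

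**Figure D3:**
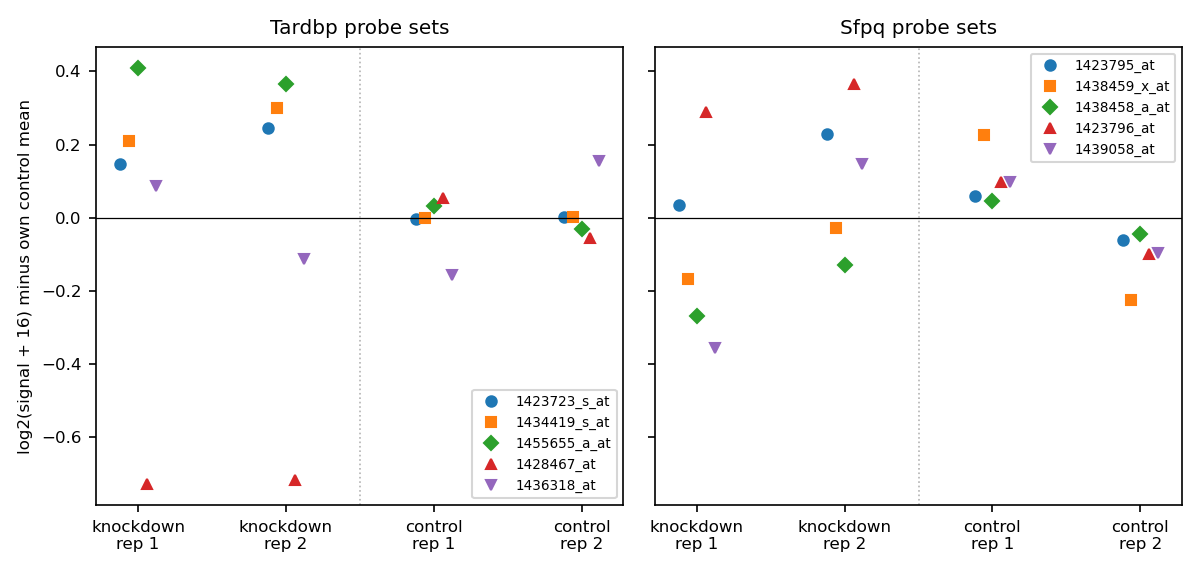
Log2(signal + 16) of each tested Tardbp and Sfpq probe set on the 2 knockdown and 2 control arrays, minus its own mean over the control arrays. Tardbp 1428467_at lies near -0.7 on both knockdown arrays, where 3 other Tardbp probe sets lie above 0.

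Calls in both directions were found in 1 of the 7 tested members. Among all 5189 genes with at least 2 tested probe sets they were found in 1.87%, and among the 187 genes with 5, as Tardbp has, in 9.09%. The distance from the lowest to the highest fold change within Tardbp was 1.11. Its median was 0.59 over genes with 5 tested probe sets, and 11.2% of those had a distance at least as wide. The same distance was 0.66 in Rbm14, 0.53 in Sfpq, 0.34 in Pspc1, 0.20 in Matr3, 0.09 in Nono and 0.06 in Ewsr1. This distance widens with the number of tested probe sets, which was 2 in Ewsr1 and Pspc1, 3 in Nono and Matr3 and 5 in the others, so these values do not rank the members. With 5 each, Rbm14 and Sfpq lay close to the median of 0.59, and the upper end in Rbm14 was the dim 1452003_at (0.39 ± 0.27). Averaging the tested probe sets of a gene gave -0.52 ± 0.06 for Ewsr1 (adjusted p = 1.42e-05) and -0.25 ± 0.07 for Nono (adjusted p = 0.00950), while the means for Matr3 (0.11 ± 0.05, adjusted p = 0.0775) and Tardbp (0.02 ± 0.08, adjusted p = 0.854) did not pass.

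Other paraspeckle proteins, from a list of 25 genes of which 23 were tested, were lower in 8 cases, higher in 2 and did not pass in 13, each gene taken at its brightest tested probe set. Of all 11814 genes taken this way 32.9% were lower and 8.95% higher, and the list's median of -0.05 compares with -0.17 over these genes. Hnrnph3, an hnRNP protein needed for intact paraspeckles, read 436.2 and 398.1 in the knockdown, against 831.9 and 836.5 in the control (-0.97 ± 0.08, adjusted p = 1.70e-06). Akap8l, a nuclear anchoring protein, read 317.8 and 300.8 in the knockdown, against 588.5 and 540.0 in the control (-0.83 ± 0.09, adjusted p = 1.27e-05). No array of 1 group reached into the other at either gene. The splicing regulators Hnrnpa1 (-0.66 ± 0.06, adjusted p = 2.99e-06) and Hnrnph1 (-0.45 ± 0.05, adjusted p = 8.06e-06) were lower too. These 4 were lower under all 16 alternatives at their brightest probe sets. A dimmer Hnrnph1 probe set, 1437267_x_at, was at 0.23 ± 0.12 with the groups apart and did not pass (adjusted p = 0.156). It passed as higher with quantile scaling (0.39, adjusted p = 0.0269) and centred on tested probe sets (0.37, adjusted p = 0.0282). Rbm7, a subunit of the nuclear exosome targeting complex, rose by 0.33 ± 0.07 (adjusted p = 0.00336) at its only probe set, which ends in _s_at. Rbm12 rose by 0.36 ± 0.12 (adjusted p = 0.0345). Neither passed with spike-in scaling (0.18 and 0.23) or without the intensity trend (adjusted p = 0.0722 and 0.0538). Rbm12 also failed with no filter (adjusted p = 0.0808), at a threshold of 0.01 and without any 1 of the arrays (fold changes between 0.31 and 0.41). A dimmer Rbm12 probe set, 1456964_at, was lower (-0.56 ± 0.20, adjusted p = 0.0400), but not with quantile scaling (adjusted p = 0.0617) or centred on tested probe sets (adjusted p = 0.0893). Hnrnpk, which takes part in the 3' end processing of Neat1, was at 0.12 ± 0.05 and did not pass (adjusted p = 0.0907) at 1460547_a_at, while 1448176_a_at was lower (-0.20 ± 0.05, adjusted p = 0.00720). The first passed as higher with quantile scaling (0.22, adjusted p = 0.00178) and centred on tested probe sets (0.26, adjusted p = 0.00146). The second did not pass in the centred fit (-0.05, adjusted p = 0.442).

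Among 6 genes of the import and methylation of these proteins, 2 (33.3%) were lower at their brightest probe set and 4 did not pass, so the share lower was that of all genes (32.9%). Prmt1, the arginine methyltransferase that modifies FET proteins, read 2898 and 2762 in the knockdown, against 3915 and 3725 in the control (-0.43 ± 0.05, adjusted p = 3.46e-05), and was lower under all 16 alternatives. Tnpo2, an import receptor close to the FET carrier Tnpo1, was at -0.43 ± 0.09 (adjusted p = 0.00301) at the brightest of 3 probe sets. That call was lost without the intensity trend (adjusted p = 0.0526). The dimmer Tnpo2 probe sets did not pass, at -0.11 with overlapping groups (adjusted p = 0.723) and at -0.36 (adjusted p = 0.126). Tnpo1 itself was at 0.16 ± 0.07 (adjusted p = 0.0748), and Kpna2, an importin alpha, at -0.03 ± 0.06. Carm1, which methylates Nono, was at -0.28 ± 0.11 (adjusted p = 0.0553). Kpnb1, importin beta, was at 0.04 ± 0.06 at its brightest probe set, which passed as higher with quantile scaling (0.17, adjusted p = 0.0172). Its 3 dimmer ones rose by 0.38, 0.48 and 0.72 (adjusted p = 0.00131, 0.0125 and 3.71e-05). With spike-in scaling the rises of 0.38 and 0.48 did not pass (adjusted p = 0.0916 and 0.0577). The rise of 0.72, at 1451967_x_at, did pass there (0.58, adjusted p = 0.000284), but its ending marks probes that may also bind other transcripts.

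**Figure D4:**
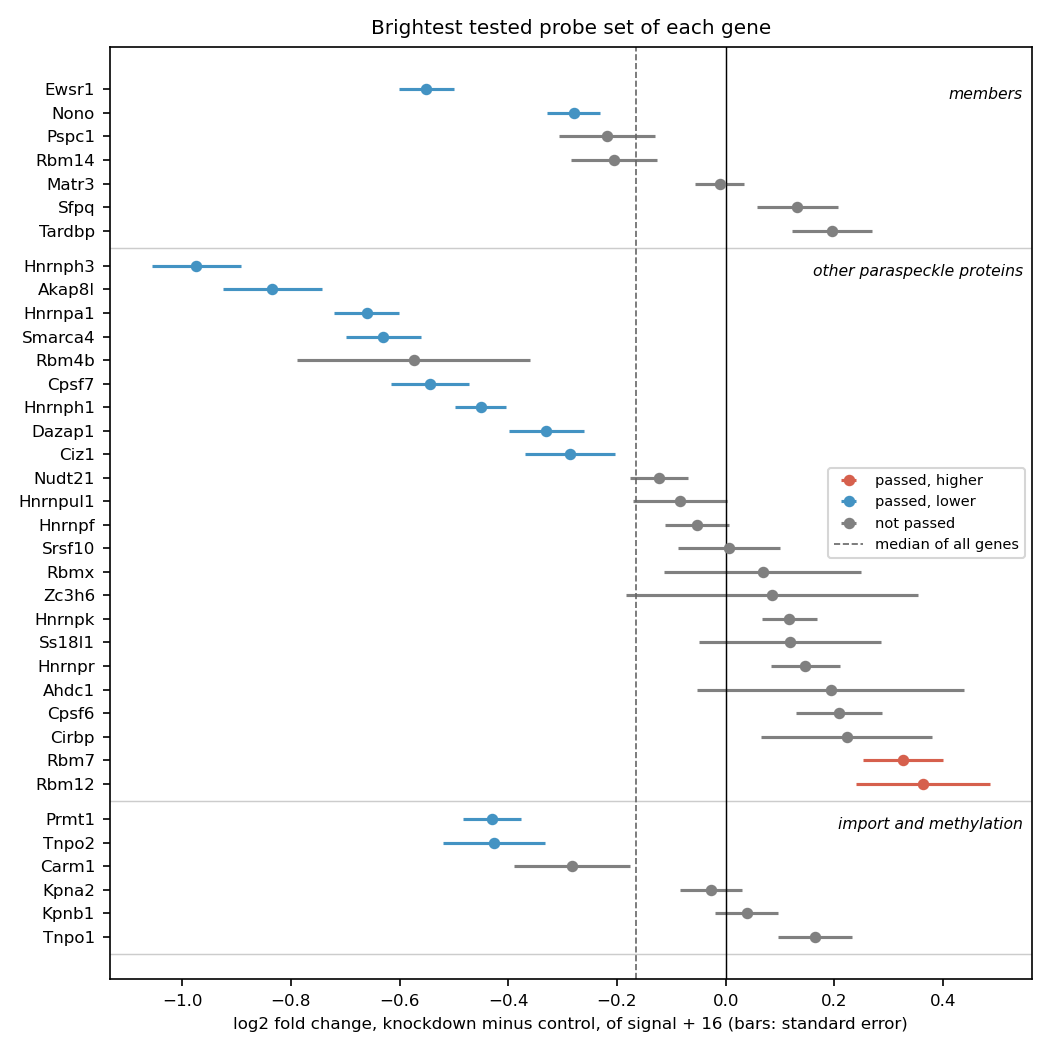
Log2 fold change with standard error at the brightest tested probe set of 7 members, 23 other paraspeckle protein genes and 6 genes of import and methylation, coloured by call, with the median of all genes (-0.17) dashed. Ewsr1 and Nono are the called members, both lower, and Hnrnph3 lies lowest of the genes plotted at -0.97.

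Neat1, the RNA that paraspeckles form on, was close to the filter in this cytoplasmic RNA. Probe set 1428083_at read 22.8 and 12.9 in the knockdown, against 41.2 and 37.2 in the control (-0.72 ± 0.23, adjusted p = 0.0243), and 1442881_at read 28.9 and 11.2 in the knockdown against 13.2 and 17.0 in the control (0.17 ± 0.28). The groups were apart at the first alone. Its call was lost without knockdown replicate 2 (adjusted p = 0.168), without control replicate 1 (0.115) or without control replicate 2 (0.0606). Slc7a2, whose CTN-RNA transcript with inverted repeats is held in mouse paraspeckles, had 4 probe sets with signals between 0.2 and 10.4 on all arrays, below the filter.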

How the data were processed

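Cytoplasmic RNA of 2 4.5SH-depleted and 2 control Neuro2A samples was measured on Affymetrix mouse arrays. The deposited values are intensities, 1 linear signal per probe set, made with MAS5 per the submitters' processing notes; version, scaling target and filters are not stated there. Of 45101 probe sets, 64 were controls; of the others 34945 carried 1 symbol, 932 several and 9160 none. Symbols were updated by Entrez identifier in 34741 cases. Values were taken as log2(signal + 16), which understates changes of dim genes, and tested with limma 3.58.1 in R 4.3.3 (intensity trend, two-sided, Benjamini-Hochberg, 13.6 total degrees of freedom), and the procedure was tested on simulated data. Members, lists and tests were chosen with earlier results of these data known. Named genes were all members, up to 4 called genes per direction of the paraspeckle list by adjusted p, Hnrnpk, the import and methylation genes, Neat1 and Slc7a2. Alternatives covered pseudocount, scaling (quantile, on the median of all or of tested probe sets, on 9 spike-in probe sets), filter, trend, replicate block, probe set kind, gene means, threshold 0.01 and each array left out. Promoters were searched with Python 3.11.15 and figures drawn with matplotlib 3.10.9.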

Additional observations from a re-analysis of the deposited data

Results flagged for a closer look

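The array also carries control probe sets named for murine B1 and B2 repeats, which no comparison above used. That named MURINE_b1 averaged 11392 in the knockdown and 10552 in the control (11744 and 11040 in the knockdown against 10841 and 10263 in the control), and that named MUR_b2 averaged 2175 in the knockdown and 1800 in the control (2109 and 2240 in the knockdown against 1819 and 1782 in the control). Both were higher on each knockdown array than on each control array. Another, named MURINE_B2, overlapped between groups (11243 and 11029 in the knockdown against 12008 and 10667 in the control). They were not tested, and which strand they read is not stated.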

How the results depend on the processing

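The replicate numbers did not pair the arrays by any label. Deviations of same-numbered arrays correlated at 0.01, which with 2 arrays per group cannot show whether those arrays were handled together. With a replicate block 5 member probe sets were higher and 5 lower, as without it. Calls over all tested probe sets numbered 8522 with that block. Over all 22525 tested probe sets 8010 were called, 2199 higher and 5811 lower. There were 5286 calls with no filter and 5132 without the intensity trend. Higher calls numbered 3817 with quantile scaling, 3800 centred on tested probe sets, 1126 with spike-in scaling, 1241 with no filter, 1354 without the trend and 1283 at a threshold of 0.01, and between 1200 and 1976 with 1 array left out. Lower calls numbered 3768 with quantile scaling and 3778 without the trend. Member probe sets higher (5) numbered 8 with quantile scaling and centred on tested probe sets, 0 with spike-in scaling, 2 with no filter, 1 without the trend and 1 at 0.01, and 1 to 3 with 1 array left out. Member probe sets lower (5) numbered 9 with spike-in scaling, 8 on the brightest 25%, 2 without the trend and 2 without _x_at and _s_at probe sets, and 4 to 7 with 1 array left out. By brightest probe set 0 member genes were higher and 2 lower by limma; there were 3 higher with quantile scaling and centred on tested probe sets, 1 centred on all probe sets, on the brightest 25% and without _x_at and _s_at, and 4 lower with spike-in scaling and on the brightest 25%, 1 without the trend and without _x_at and _s_at. Other paraspeckle genes higher (2) numbered 5 with quantile scaling and centred on tested probe sets, 0 with spike-in scaling and without the trend, 1 with no filter, 1 at 0.01 and 1 to 2 with 1 array left out. Import and methylation genes called (2) numbered 4 with quantile scaling, centred on tested probe sets, on the brightest 25% and as means of probe sets, and 1 without the trend. The Neat1 call (1) became 0 centred on tested probe sets, with no filter, at 0.01 and in 3 of 4 cases with 1 array left out. Matr3 1438368_a_at turned from -0.01 to 0.11 with quantile scaling and 0.14 centred on tested probe sets. Scalings differ by construction in their zero point; otherwise the cause was not tested. Of 872 values of named probe sets under alternatives 65 lost the call and 41 gained one in the same direction. The sign turned in 43, over 18 probe sets; 0 of these were called on the deposited scale by limma, and 2, both at Matr3 1438368_a_at, were called under the alternative.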

Other observations

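Besides Tardbp, some genes of the paraspeckle list, singled out after their values were seen, differed between probe sets. Of 12 list genes with at least 2 tested probe sets 2 were called both ways, Hnrnpf and Rbm12. Such calls were found in 1.87% of all genes with at least 2 and in 9.09% of those with 5. These shares were not matched to the number of probe sets per list gene, so the count is no result about the list. Neither Hnrnpf nor Rbm12 was called both ways with quantile scaling, centred on tested probe sets or with spike-in scaling. Other list genes were: Hnrnph1, Srsf10 and Hnrnpk with quantile scaling, and Hnrnph1 and Srsf10 centred on tested probe sets. Hnrnpf, an hnRNP that binds G-rich RNA, was lower at 1423382_a_at (-0.29 ± 0.07, adjusted p = 0.00489) and higher at 1437099_x_at (0.37 ± 0.10, adjusted p = 0.010). The lower call was lost with quantile scaling (-0.12, adjusted p = 0.144) and centred on tested probe sets (-0.14, adjusted p = 0.0916), and the higher one with spike-in scaling (0.22, adjusted p = 0.155). Srsf10, a splicing regulator, was lower at 1449121_at, with 238.0 and 264.2 in the knockdown against 450.8 and 400.6 in the control (-0.73 ± 0.10, adjusted p = 9.90e-05). Its brightest probe set was at 0.01 ± 0.09 and did not pass. Srsf10 was also lower at 1418526_at (-0.24 ± 0.08, adjusted p = 0.0211), though not with quantile scaling (-0.06, adjusted p = 0.469). At 1418527_a_at the knockdown arrays were above both controls (0.16 ± 0.08), which did not pass (adjusted p = 0.144). That probe set passed as higher with quantile scaling (0.33, adjusted p = 0.00348). Cpsf6 and Cpsf7, alternative partners in the cleavage factor CFIm, had calls of opposite direction. Cpsf6 rose at 1428233_at, with 463.3 and 491.5 in the knockdown against 325.0 and 283.3 in the control (0.63 ± 0.10, adjusted p = 0.000218), while its brightest probe set was at 0.21 ± 0.08 and did not pass (adjusted p = 0.0535). Cpsf7 fell at its tested probe set, with 797.0 and 809.7 in the knockdown against 1231 and 1128 in the control (-0.54 ± 0.07, adjusted p = 6.39e-05). The difference between the pair was not tested.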
